A study of Mus musculus with 2 samples.

Results

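The transcripts described here encode the machinery that licenses replication origins and builds and runs the replication fork. Their members were taken by gene name: Mcm genes, Orc1 to Orc6, Cdc6, Cdt1, Gmnn, Cdc7, Dbf4, Cdc45, Gins1 to Gins4, Ticrr, Wdhd1, the subunits of the replicative polymerases, Prim1 and Prim2, Pcna, Rfc1 to Rfc5, Rpa1 to Rpa3, Lig1, Timeless, Tipin and the Rrm genes. This gave 55 of the 11262 genes of the table, and the rule reads names and no values. Fen1, the flap nuclease of Okazaki fragments, is also named in the rule, but no gene of the table carries that name. The second polar body (PB2), the small cell that the egg extrudes at the end of meiosis II, was compared with the zygote it had been attached to, with 1 RNA library of each. Both came from embryos labelled C57BL/6, which the study's methods give as C57BL/6N, that were taken from the oviduct, cultured in KSOM medium without any treatment and collected late in the 1-cell stage. The zona pellucida was dissolved in acid Tyrode's solution, and PB2 was then detached from the zygote in trypsin by pipetting, so both libraries share this handling and the label gives both as embryo tissue. Each library pooled material of several embryos, and its polyadenylated RNA was amplified as full-length cDNA before sequencing.

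With 1 library per group there is no spread between replicates, and every difference below describes these libraries and carries no test. Levels are given as TPM, transcript abundances on a fixed library total, which by definition are adjusted for transcript length and for the total of each library. How the deposited values were computed is not given, and effects of amplification on single genes are not removed. Ratios between genes are therefore approximate. TPM are proportions, so fewer cells and less RNA per cell cannot be told apart, and the read depth behind a value is unknown. The genes of the table hold 92.7% of a full library's TPM in the zygote and 89.8% in PB2. Both libraries carried the egg: 13 of 14 listed oocyte and egg markers were in the table, at 90.9 to 22561.9 TPM in the zygote and 99.5 to 22397.3 TPM in PB2, and the remaining symbol is a second name of one of them. Of 14 cumulus and granulosa markers 4 were in the table, and their summed level was 81.4 TPM in the zygote and 83.4 in PB2. Of this Cyp19a1 made up 72.2 and 70.9 TPM, Nr5a2 7.0 and 8.4 TPM and Fshr 2.2 and 3.3 TPM, and the fourth was under 1 TPM. Of 5 sperm markers Prm2 was listed, at 19.8 TPM in the zygote and 22.0 in PB2, and none of 5 blood markers was.

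Replication is prepared before it starts. The origin recognition complex marks origins, and Cdc6 and Cdt1 load onto it the ring-shaped Mcm2 to Mcm7 helicase, a step that geminin blocks once S phase has begun. Kinases, namely the cyclin-dependent kinases and Cdc7 with Dbf4, then turn the loaded ring into a moving helicase with Cdc45 and GINS, and polymerases, clamp and clamp loader follow. The mouse egg stores these mRNAs and proteins during its growth, since the pronuclei copy their DNA with little new transcription, whereas PB2 has left the meiotic division with its own nucleus and a small share of the egg cytoplasm.

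Only genes listed in the table could become members, and all 55 were above 0 in both libraries. The share of all genes above 0 in both libraries was not counted. Together the members held 8837.0 TPM in the zygote and 8089.0 in PB2. At least 100 TPM in either library was reached by 15 members, or 27.3%, against 14.6% of all genes of the table. Levels were very uneven: the 4 most abundant members held 55.5% of the members' TPM in the zygote (Orc6, Tipin, Gmnn and Pole4) and 46.8% in PB2 (Orc6, Pole4, Gmnn and Gins4). Only 4 members stayed under 10 TPM in both libraries, namely the catalytic subunits Pold1 and Pole and the clamp loader subunits Rfc2 and Rfc4.

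**Figure D1:**
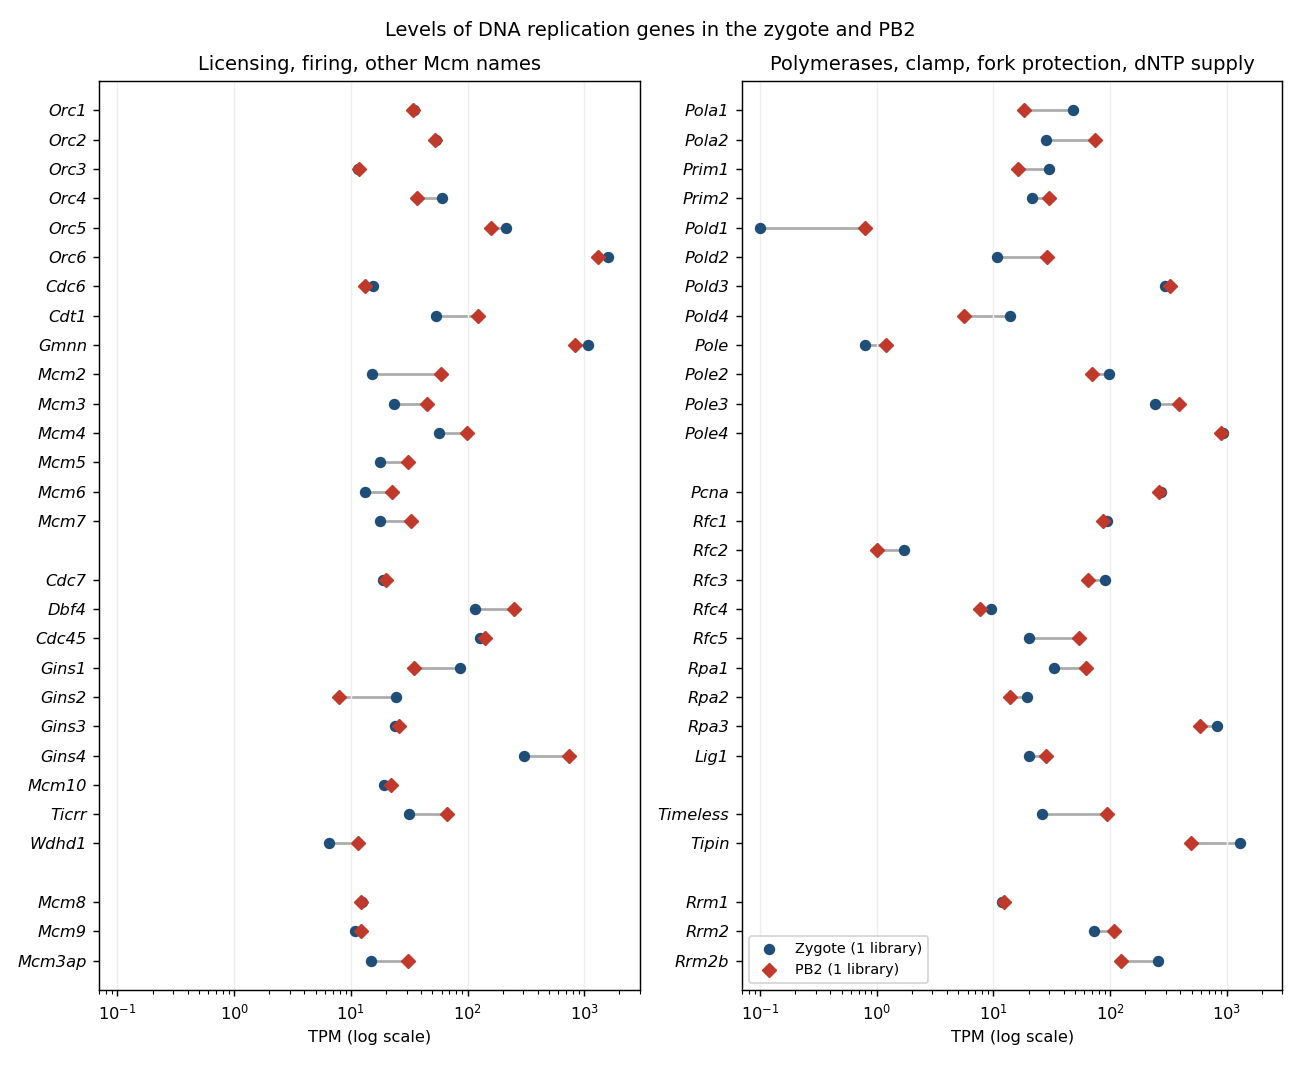
TPM of each of the 55 members in the zygote library and in the PB2 library, on a log axis, with the members ordered by role in 2 panels and a line joining the 2 values of a gene. Most pairs lie close together, while Tipin (1302.2 TPM in the zygote and 489.3 in PB2), Mcm2 (15.2 and 59.5) and Timeless (25.9 and 93.3) stand apart, and Pold1 and Pole lie at the low end.

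PB2 and zygote values were compared as log2((PB2 TPM + 1)/(zygote TPM + 1)), referred to as the log2 ratio, so a positive value means a higher level in PB2. The 1 TPM that is added understates the differences of low genes. The ratio was computed for the 54 members, of 10645 genes in all, with at least 1 TPM in either library, which leaves out Pold1. Of these, 10 members (18.5%) stood 2-fold or more higher in PB2, beside 18.9% of all genes compared, and 6 members (11.1%) stood 2-fold or more higher in the zygote, beside 8.09% of all genes. A higher TPM in PB2 at any size was seen for 30 members (55.6%), beside 59.2% of all genes. These shares lie near those of all genes and are no result about the replication genes as a whole. The median log2 ratio was 0.10 over members and 0.21 over all genes, and 27 members lay within 0.5 of 0, as did 41.8% of all genes. When all log2 ratios were centred on the median of all genes, 6 members stood 2-fold or more higher in PB2 and 7 in the zygote. Of all 10645 genes compared, 1383 and 1291 did so after centring. The larger differences lay between single subunits, often of one complex.

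Many of these messages carry, near their end, letters of the cytoplasmic polyadenylation element, the sequence through which egg mRNAs are kept with short tails and later extended. A search of the last 100 bases of the longest coding transcript for TTTTAT or TTTTAAT, chosen after the levels had been seen, found the letters in 22 of 54 members (40.7%) and in 2084 of 10606 genes compared (19.6%). The 30-base pieces below are shown because they belong to the members with at least 500 TPM or with at least a 2-fold difference that hold the letters. All lie in the last exon in GENCODE M21 (GRCm38) and are written on the strand of the gene, and capitals mark the letters searched and, where it falls into the piece, the polyadenylation signal AATAAA.
Orc6 (chr8:85308249-85308278, plus strand): tcaagcccAATAAAtgttatTTTTATatgc
Gmnn (chr13:24751907-24751936, minus strand): aatccgTTTTATgtaaatagcattttcatt
Pole4 (chr6:82646771-82646800, minus strand): ttcagtTTTTATttgagttcagtatttttt
Rpa3 (chr6:8255978-8256007, minus strand): aagcctTTTTATaaactttttttaaaagtg
Mcm2 (chr6:88883485-88883514, minus strand): tttattTTTTAATagatttgAATAAAacct
Cdt1 (chr8:122573078-122573107, plus strand): tttggcTTTTAATAAAgtcatgtaagattt
Dbf4 (chr5:8397011-8397040, minus strand): tacAATAAAaacttaatgacttaTTTTATa
Pola1 (chrX:93304804-93304833, minus strand): ttgtctTTTTATaaagaaaaatgtattgtg

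In Orc6, Mcm2 and Dbf4 both the letters searched and the signal lie within the 30 bases. The letters come before the signal in Mcm2 and after it in Orc6 and Dbf4. In Cdt1 the letters and the signal share bases. Of the 6 members with at least 500 TPM in either library, 4 held the letters (Orc6, Gmnn, Pole4 and Rpa3), while Tipin and Gins4 did not. The median log2 ratio was 0.14 for members with the letters and 0.07 for members without them, beside 0.24 and 0.20 over all genes. Among members at least 2-fold apart, the letters were in 3 of the 10 that were higher in PB2 (Mcm2, Cdt1 and Dbf4) and in 1 of the 6 that were higher in the zygote (Pola1). A match is a description of letters, and tail length was not measured.

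Among the licensing genes, the Mcm2 to Mcm7 ring stood higher in PB2 in every subunit, while the origin recognition complex did not. The origin recognition complex is a ring of Orc1 to Orc5 with the smaller Orc6 attached. Its most abundant message was Orc6 (ENSMUSG00000031697, chr8:85299632-85308278, plus strand, 6 exons), with 1593.3 TPM in the zygote and 1314.4 in PB2. It ranked 83rd of all genes in the zygote and 82nd in PB2, and its log2 ratio was -0.28. Orc5, an ATP-binding ring subunit, followed with 214.9 TPM in the zygote and 157.8 in PB2, a log2 ratio of -0.44. Orc4 had 60.1 TPM in the zygote and 36.8 in PB2, and its log2 ratio of -0.69 was the lowest of the complex. These 3 subunits were lower in PB2, each by less than 2-fold. Orc1, the ATPase of the ring, was at 34.9 TPM in the zygote and 34.4 in PB2. Orc2 was at 53.5 and 52.9 TPM, and Orc3, the least abundant, at 11.5 and 11.8 TPM. The levels of Orc1, Orc2 and Orc3 were thus nearly the same in both libraries, with log2 ratios from -0.02 to 0.03. Over the 6 subunits the median log2 ratio was -0.15. A higher TPM in PB2 was seen for 1 of 6, beside 59.2% of all genes. None passed 2-fold, beside 18.9% of all genes higher in PB2 and 8.09% in the zygote. With the trend on transcript GC content removed (below), Orc2 and Orc3 stood above 0, at 0.08 and 0.20. Orc6 exceeded Orc3 by 139-fold in the zygote and by 111-fold in PB2, with Orc6 and Orc5 leading and Orc3 last in both, while Orc4 and Orc2 changed places.

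The loading factors and their inhibitor differed among themselves. Cdc6, the ATPase that recruits the ring to origins, had 15.6 TPM in the zygote and 13.3 in PB2. Cdt1 (chr8:122568015-122573554, plus strand), which carries the helicase to the origin, had 53.7 TPM in the zygote and 122.1 in PB2. It was 2.27-fold higher in PB2, a log2 ratio of 1.17. Its inhibitor geminin, encoded by Gmnn (chr13:24751845-24761923, minus strand), was far more abundant, with 1070.9 TPM in the zygote and 832.3 in PB2 and a log2 ratio of -0.36. Gmnn exceeded Cdt1 by 19.9-fold in the zygote and by 6.82-fold in PB2. Cdt1 has the transcript richest in GC among the members compared (58.8%), and with the GC trend removed its log2 ratio was 0.27.

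The Mcm2 to Mcm7 subunits form the hexameric ring that unwinds DNA. Mcm2 (ENSMUSG00000002870, chr6:88883474-88898780, minus strand, 16 exons), whose tail also binds histones, had 15.2 TPM in the zygote and 59.5 in PB2. This 3.91-fold difference, a log2 ratio of 1.90, was the largest in favour of PB2 among the members compared. The other 5 subunits differed by less than 2-fold and by similar amounts: Mcm3 was at 23.3 and 44.5 TPM in the zygote and PB2, a log2 ratio of 0.90. Mcm7 was at 17.7 and 33.0 TPM, a log2 ratio of 0.86. Mcm4, the most abundant subunit, was at 56.8 and 99.4 TPM, a log2 ratio of 0.80. All of these were higher in PB2. Mcm5 was at 17.8 and 30.8 TPM, a log2 ratio of 0.76, and Mcm6 at 13.2 and 22.7 TPM, a log2 ratio of 0.74. The summed level of the ring was 144.0 TPM in the zygote and 289.9 in PB2, and its median log2 ratio was 0.83. Of all genes compared, 28.1% had a log2 ratio at or above 0.74, the lowest of the ring. Mcm4 exceeded Mcm6 by 4.30-fold in the zygote and by 4.38-fold in PB2, so the proportions among most subunits were alike and Mcm2 moved from a place next to Mcm6 to the second most abundant. The log2 ratios of all 6 stayed above 0 after centring on the median of all genes (0.53 to 1.69), with the GC trend removed (0.33 to 1.19) and with the trend on transcript length removed (0.40 to 1.55).

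The upstream sequence of Mcm genes is known for binding sites of E2F, the transcription factor of S phase genes. RefSeq (GRCm38.p6) promoter windows of 300 bases, from 250 before to 50 after a transcription start, were matched by symbol for 45 members and searched on both strands for TTTCCCGC and TTTGGCGC. The letters were in 15 of 45 members (33.3%) and in 312 of 8911 genes of the table with a window (3.50%). They were in 4 of the 5 ring subunits with a window, namely Mcm3, Mcm5, Mcm6 and Mcm7, but not in Mcm2, and Mcm4 had no window. Of the origin recognition complex, 1 of 6 held them (Orc3). The windows of members were also slightly richer in GC, with a median of 62.7% against 60.3% of all windows. The stretches below are examples from the ring subunits Mcm5 and Mcm6 and the polymerase subunit Pola1. Their sites lie before the start and outside the annotated span of the gene itself. The sites of Mcm3 and Mcm7 are not printed. Each stretch is on the strand of its gene, with up to 40 bases on either side and the letters in capitals. The letters read GCGCCAAA where they lie on the opposite strand.
Mcm5 (chr8:75109320-75109407, plus strand): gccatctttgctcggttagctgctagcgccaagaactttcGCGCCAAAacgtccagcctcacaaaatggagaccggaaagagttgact
Mcm6 (chr1:128359706-128359855, minus strand): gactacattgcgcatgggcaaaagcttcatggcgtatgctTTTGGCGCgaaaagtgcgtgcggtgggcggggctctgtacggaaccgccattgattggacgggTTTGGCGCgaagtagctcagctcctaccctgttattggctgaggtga
Pola1 (chrX:93632246-93632333, minus strand): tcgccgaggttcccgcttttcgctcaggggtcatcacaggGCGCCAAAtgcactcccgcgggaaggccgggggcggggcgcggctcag

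The site of Mcm5 begins 149 bases before its start, those of Mcm6 begin 110 and 47 bases before, and that of Pola1 138 bases before. The letters were found on both sides of the difference between the libraries: Mcm5 and Mcm6, with log2 ratios of 0.76 and 0.74, hold them, Mcm2 with 1.90 does not, and Pola1 with -1.35 does. They were in 1 of 9 members with a window that stood 2-fold or more higher in PB2 (Cdt1) and in 1 of 2 that stood 2-fold or more higher in the zygote. The remaining members with the letters were Cdc6, Gins3, Mcm8, Pold1, Pold3, Pole2, Pole4 and Rfc3.

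The firing factors held wide differences within a single complex. GINS, which clamps the ring to Cdc45, is built of 4 subunits in equal number. Gins4 (chr8:23226616-23237659, minus strand) had 306.7 TPM in the zygote and 740.8 in PB2, a 2.42-fold higher level in PB2 and a log2 ratio of 1.27. Gins1 had 85.4 TPM in the zygote and 34.5 in PB2, a level 2.48-fold higher in the zygote and a log2 ratio of -1.28. Gins2 (ENSMUSG00000031821, chr8:120578633-120589304, minus strand) had 24.3 TPM in the zygote and 7.9 in PB2, 3.08-fold higher in the zygote, and its log2 ratio of -1.51 was the lowest of the members compared. Gins3 lay between, at 23.7 TPM in the zygote and 25.9 in PB2. The subunits of one complex were therefore spread over 2.78 on the log2 scale. Gins4 was the most abundant in both libraries, at 12.9-fold the level of Gins3 in the zygote and 93.8-fold that of Gins2 in PB2. The longest Gins2 transcript shares 70.7% of its bases with exons of Gse1 on the opposite strand, and Gse1 was at 18.1 TPM in the zygote and 92.2 in PB2. Whether the authors' counting used strand is not given in the sources used here, reads of the 2 genes cannot be told apart without it, and the value of Gins2 is uncertain for this reason.

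Of the kinase that triggers firing, the activating subunit passed 2-fold and the catalytic subunit was nearly equal. Dbf4 had 116.9 TPM in the zygote and 247.8 in PB2, 2.12-fold higher in PB2 with a log2 ratio of 1.08. Cdc7, its catalytic partner, had 19.0 TPM in the zygote and 20.1 in PB2, a log2 ratio of 0.08. Dbf4 exceeded Cdc7 by 6.15-fold in the zygote and by 12.3-fold in PB2. Ticrr, also called treslin, which brings Cdc45 to the ring, had 31.2 TPM in the zygote and 66.5 in PB2, a log2 ratio of 1.07. Cdc45 itself, part of the active helicase, was at 127.3 TPM in the zygote and 142.4 in PB2, and Mcm10, which helps the helicase to start, at 19.1 and 22.1 TPM. Their log2 ratios of 0.16 and 0.20 were close to the median of all genes. Wdhd1, which ties polymerase alpha to the helicase, was at 6.5 TPM in the zygote and 11.4 in PB2, a log2 ratio of 0.73. Over the 10 firing factors the median log2 ratio was 0.18. A 2-fold or larger excess was seen for 3 in PB2 and for 2 in the zygote, beside 18.9% and 8.09% of all genes. With only 10 genes these counts are a description and no result about the group.

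**Figure D2:**
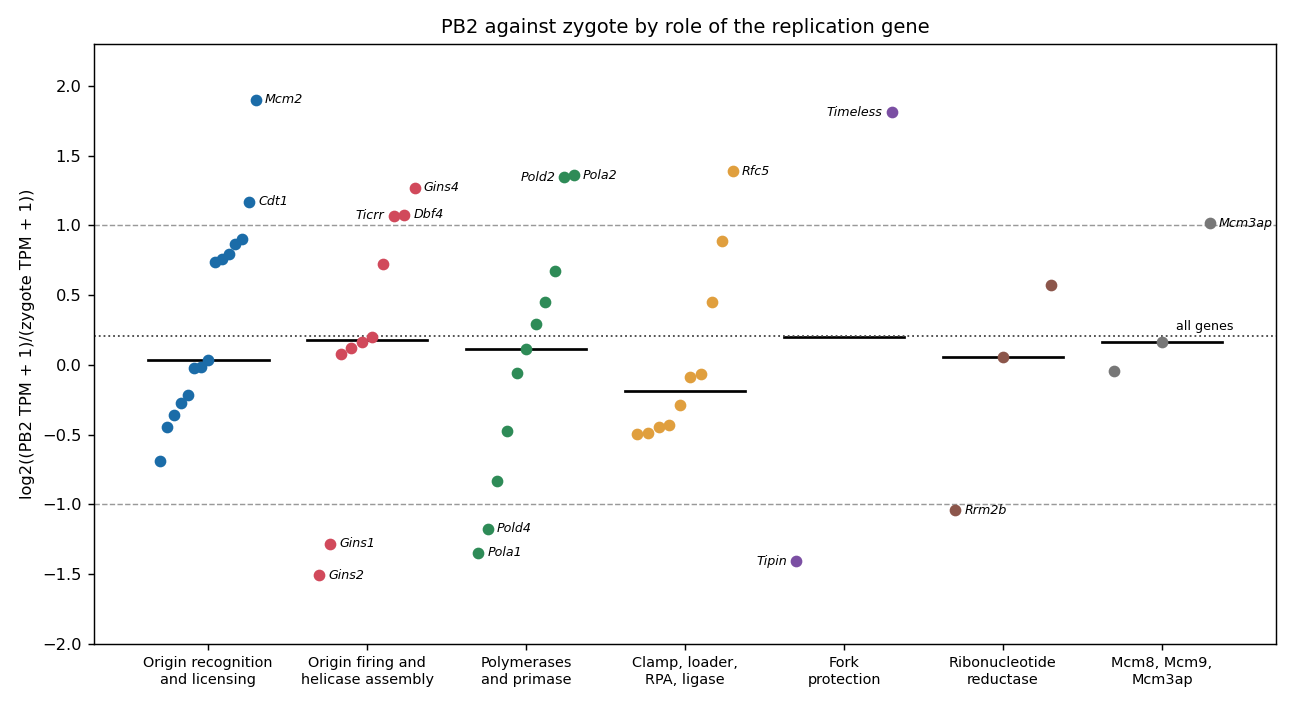
Log2 ratio of PB2 to zygote for each member compared, grouped by role, where each point is 1 gene, black bars are group medians, dashed lines mark 2-fold and the dotted line is the median of all genes (0.21). The group medians lie between -0.19 and 0.20, while single genes reach from -1.51 (Gins2) to 1.90 (Mcm2).

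Polymerase alpha with primase lays the RNA and DNA primers. Its catalytic subunit Pola1 (chrX:93304767-93632155, minus strand) had 48.1 TPM in the zygote and 18.3 in PB2, 2.63-fold higher in the zygote with a log2 ratio of -1.35. The regulatory subunit Pola2 went the other way, with 28.1 TPM in the zygote and 73.6 in PB2, 2.62-fold higher in PB2 with a log2 ratio of 1.36. The primase subunits were also unlike: catalytic Prim1 was at 30 TPM in the zygote and 16.4 in PB2, a log2 ratio of -0.83, and Prim2 at 21.5 and 29.7 TPM, a log2 ratio of 0.45. Both catalytic subunits were thus lower in PB2 and both partners higher, while the sum over the complex was 127.7 TPM in the zygote and 138.0 in PB2. Pola1 and Prim1 stayed below 0, and Pola2 and Prim2 above 0, with the GC trend removed, at -1.09, -0.73, 0.71 and 0.35.

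The lagging strand polymerase delta was represented mainly by its subunit Pold3, with 298.1 TPM in the zygote and 323.2 in PB2, a log2 ratio of 0.12. Pold2, the subunit that joins Pold3 to the catalytic subunit, had 10.8 TPM in the zygote and 29.0 in PB2, a log2 ratio of 1.35. Pold4, the smallest subunit, had 13.9 TPM in the zygote and 5.6 in PB2, a log2 ratio of -1.17. Its longest transcript shares 31.3% of its bases with another coding gene of the same strand that was not analysed here, so its counts are uncertain. The catalytic subunit Pold1 was the lowest member of all, at 0.1 TPM in the zygote and 0.8 in PB2. Values are deposited to 1 decimal, so the true ratio of Pold1 could lie between 5-fold and 17-fold and no log2 ratio is given for it. Pold1 also has a GC-rich transcript (60.7%). In the leading strand polymerase epsilon the catalytic subunit was again low, with Pole at 0.8 TPM in the zygote and 1.2 in PB2. Its histone-fold subunits were abundant: Pole4 was at 936.6 TPM in the zygote and 897.1 in PB2, and Pole3, which also serves in a chromatin remodeller, at 243.7 and 389.0 TPM, with log2 ratios of -0.06 and 0.67. Pole2, the second subunit of the core, was at 97.7 TPM in the zygote and 69.9 in PB2, a log2 ratio of -0.48. Within polymerase epsilon Pole4 exceeded Pole by 1171-fold in the zygote and by 748-fold in PB2. The low level of both catalytic subunits was thus common to zygote and PB2. None of the 4 epsilon subunits passed 2-fold, beside 18.9% of all genes higher in PB2 and 8.09% in the zygote.

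The sliding clamp and its helpers mostly differed by less than 2-fold, as did most genes compared. Pcna, the ring that holds polymerases on DNA, had 272.5 TPM in the zygote and 260.6 in PB2, a log2 ratio of -0.06. Named pseudogenes of Pcna exist in the annotation, and reads could be shared with them. Of the clamp loader, the large subunit Rfc1 was at 93.3 TPM in the zygote and 87.8 in PB2, Rfc3 at 91.0 and 64.3 TPM, and Rfc4 at 9.6 and 7.7 TPM. These 3 had log2 ratios of -0.09, -0.49 and -0.28. Rfc2 was low, at 1.7 TPM in the zygote and 1.0 in PB2. Rfc5 alone in the complex passed 2-fold, with 20.1 TPM in the zygote and 54.3 in PB2, and its log2 ratio was 1.39. With the GC trend removed Rfc5 was at 1.17, and 17.8% of its longest transcript is shared with Wsb2 on the opposite strand, which was at 0.2 TPM in the zygote and 2.4 in PB2.

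Replication protein A coats single-stranded DNA as a trimer. Its smallest subunit Rpa3 was the most abundant, at 826.4 TPM in the zygote and 587.5 in PB2, a log2 ratio of -0.49. Rpa2, the subunit phosphorylated under replication stress, was at 19.4 TPM in the zygote and 14.0 in PB2, a log2 ratio of -0.44. The large DNA-binding subunit Rpa1 was higher in PB2, with 33.0 TPM in the zygote and 61.9 in PB2 and a log2 ratio of 0.89. Rpa3 exceeded Rpa2 by 42.6-fold in the zygote and by 42.0-fold in PB2, so this large imbalance was alike in both libraries. Lig1, the ligase that seals Okazaki fragments, was at 20.3 TPM in the zygote and 28.1 in PB2, a log2 ratio of 0.45 that became -0.10 with the GC trend removed. Over the 10 genes of clamp, clamp loader, single-strand binding and ligation the median log2 ratio was -0.19. Of these, 1 of 10 was at least 2-fold higher in PB2 and none in the zygote, beside 18.9% and 8.09% of all genes.

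The partners of the fork protection complex lay 3.22 apart on the log2 scale. Timeless and Tipin bind each other at the fork and keep the helicase and polymerases coupled. Timeless (ENSMUSG00000039994, chr10:128232065-128252941, plus strand, 29 exons) had 25.9 TPM in the zygote and 93.3 in PB2, 3.60-fold higher in PB2 with a log2 ratio of 1.81. Tipin (ENSMUSG00000032397, chr9:64281581-64305424, plus strand, 8 exons) had 1302.2 TPM in the zygote and 489.3 in PB2, 2.66-fold higher in the zygote with a log2 ratio of -1.41. Tipin exceeded Timeless by 50.3-fold in the zygote and by 5.24-fold in PB2, so the partners were nearer to each other in PB2 although Tipin remained the more abundant. They also differ in base composition, with 55.1% GC in the longest Timeless transcript and 40.8% in that of Tipin. With the GC trend removed their log2 ratios were 1.13 and -1.12, still more than 2-fold apart from 0 on opposite sides.

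Ribonucleotide reductase makes deoxyribonucleotides from a large subunit and either of a pair of small subunits. The large subunit Rrm1 was at 11.9 TPM in the zygote and 12.4 in PB2. Rrm2, the small subunit of S phase, was at 72.7 TPM in the zygote and 108.3 in PB2, a log2 ratio of 0.57. Rrm2b, the p53-inducible small subunit that serves cells outside S phase, was the most abundant in both libraries, at 257.0 TPM in the zygote and 124.4 in PB2. It was 2.07-fold higher in the zygote, a log2 ratio of -1.04 that became -0.68 with the GC trend removed. Its excess over Rrm1 was 21.6-fold in the zygote and 10.03-fold in PB2. The name rule also took Mcm8 and Mcm9, which form a helicase of recombination repair, and Mcm3ap, a nuclear mRNA export factor that is no subunit of the ring. Mcm8 was at 12.5 TPM in the zygote and 12.1 in PB2, and Mcm9 at 10.8 and 12.2 TPM. Mcm3ap was at 14.8 TPM in the zygote and 30.9 in PB2, a log2 ratio of 1.01 that became 0.47 with the GC trend removed. The repair helicase thus did not share the higher level of the Mcm2 to Mcm7 ring, and its log2 ratios were -0.04 and 0.16.

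Base composition moved with these differences. Across the 54 members Spearman's rho between the log2 ratio and the GC content of the longest coding transcript was 0.54, and across all 10606 genes with such a transcript it was 0.44, where the genes of a library share its amplification and are no replicates. For transcript length rho was 0.25 over members and 0.17 over all genes. Members reached from 36.8% GC in Orc4 to 58.8% in Cdt1, with a median of 48.0% against 49.1% over all genes. The part of base composition in the differences was not tested. A trend of the log2 ratio on GC content was fitted over all genes and subtracted, which also centres the ratios. After this, 4 members stood 2-fold or more higher in PB2 (Mcm2, Timeless, Rfc5 and Dbf4) and 5 in the zygote (Gins1, Gins2, Pola1, Pold4 and Tipin), and each had been so before. Of these 9, Dbf4 did not stay past 2-fold after centring (0.87) or with the length trend removed (0.80), nor did Pold4 with the length trend removed (-0.84). The other 7 were past 2-fold in each of these settings. Over all genes 963 and 1162 passed 2-fold after the trend was removed, where 2009 and 861 had before. Cdt1, Gins4, Ticrr, Pola2, Pold2 and Mcm3ap, each between 50.9% and 58.8% GC, were at 0.27 to 0.93 after removal, and Rrm2b was at -0.68.

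**Figure D3:**
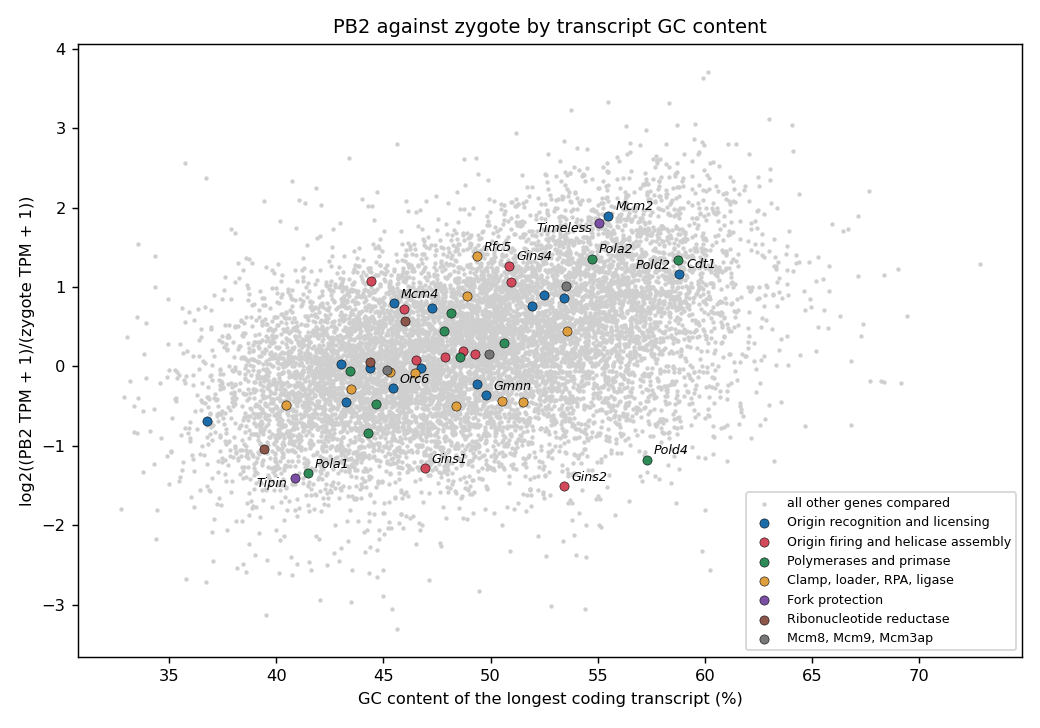
Log2 ratio of PB2 to zygote against the GC content in percent of the longest coding transcript, for the other genes compared (grey) and for the members (coloured). Members with little GC, such as Tipin (40.8%) and Pola1 (41.5%), lie mostly below those rich in GC, such as Cdt1 (58.8%), and the other genes show the same tilt (rho 0.44).

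**Figure D4:**
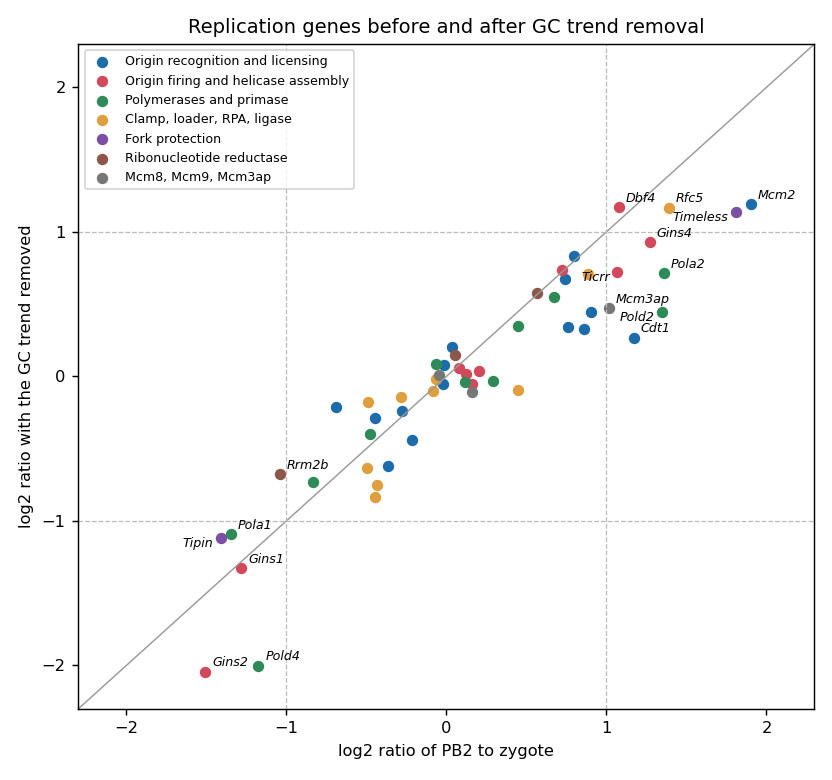
Log2 ratio of each member before (horizontal axis) and after (vertical axis) the GC trend was removed, with the diagonal of no change and dashed lines at 2-fold. Mcm2, Timeless, Rfc5 and Dbf4 remain above 1, Gins1, Gins2, Pola1, Pold4 and Tipin below -1, and Cdt1 drops from 1.17 to 0.27. Dbf4 and Pold4 are not past 2-fold with the length trend removed in place of the GC trend (0.80 and -0.84).

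Other overlaps of transcripts bear on single members. Of all members, 14 have a longest transcript that shares bases with another coding gene, and 9 of them share over 10%. Besides Gins2, Pold4 and Rfc5, these were Orc2 (854 bases, with Nif3l1), Rfc2 (19.1%, with Lat2), Rfc4 (14.5%, with Eif4a2), Pole2 (14.4%), Mcm7 (13.0%) and Orc4 (11.0%). Eif4a2 was at 127.3 TPM in the zygote and 76.2 in PB2, well above Rfc4 at 9.6 and 7.7 TPM.

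Genes that act on this machinery but are no members were described in 6 lists, of which 98 of 113 listed genes were in the table and 95 were compared. Of these, 21 (22.1%) stood 2-fold or more higher in PB2 and 3 (3.16%) in the zygote, beside 18.9% and 8.09% of all genes. With the GC trend removed the counts were 13 and 3 of the 95, beside 963 and 1162 of the 10606 genes with a coding transcript. Before removal the median log2 ratio of the 95 was 0.21, equal to that of all genes at this precision. The kinases of S phase and the E2F family stood highest, with a median log2 ratio of 0.96 over 19 genes. Of these, 17 had a higher TPM in PB2, beside 59.2% of all genes. This list and the others were chosen with earlier results of these data known, so their shares are a description only. In this list 9 (47.4%) stood 2-fold or more higher in PB2 and none in the zygote, beside 18.9% and 8.09% of all genes. With the GC trend removed its median was 0.92, and 6 of the 9 stayed past 2-fold, while Cdk1 (0.92), E2f2 (0.58) and E2f4 (0.81) did not. Rbl1 (1.17) and Cdkn1b (1.12) passed only after removal, so 8 of the 19 were then past 2-fold in PB2 and 0 in the zygote. Cdk2, the kinase of S phase entry, had 4.0 TPM in the zygote and 25.9 in PB2, a log2 ratio of 2.43, and Cdk1, the kinase of mitosis, had 100.6 and 204.5 TPM, a log2 ratio of 1.02. Their partner cyclin A2 (Ccna2) had 97.4 TPM in the zygote and 379.9 in PB2, and the phosphatase Cdc25a, which activates them, 27.8 and 86.7 TPM. The log2 ratios of these were 1.95 and 1.61. Of the transcription factors, E2f1 had 14.7 TPM in the zygote and 88.5 in PB2, a log2 ratio of 2.51 and of 1.63 with the GC trend removed. E2f2 was at 7.4 and 20.6 TPM, the repressive E2f4 at 92.0 and 273.3 TPM and E2f5, the most abundant, at 532.4 TPM in the zygote and 1366.4 in PB2. These 4 family members were more than 2-fold higher in PB2, as was Skp2, which marks the inhibitor p27 for decay, at 5.1 TPM in the zygote and 11.3 in PB2. Other genes of the list, named here after their values were seen, did not pass 2-fold: E2f6 at 0.06, E2f8 at 0.09, the dimer partner Tfdp2 at -0.17, Ccne1 at 0.47 and Ccne2 at -0.36 on the log2 ratio scale.

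Among 19 genes of licensing control and helicase unloading, 5 (26.3%) stood 2-fold or more higher in PB2 and 1 (5.26%) in the zygote, beside 18.9% and 8.09% of all genes. Their median log2 ratio was 0.40. Donson, which brings GINS to the ring, had 16.2 TPM in the zygote and 51.6 in PB2, a log2 ratio of 1.61. Ddb1, the adaptor of the ubiquitin ligase that destroys Cdt1, had 61.7 TPM in the zygote and 187.2 in PB2, a log2 ratio of 1.59. Cul4b, a scaffold of the same ligase, was the one that was higher in the zygote, at 210.7 TPM against 104.0 in PB2, a log2 ratio of -1.01. Traip, the ligase that unloads stalled helicases, was at 5.3 TPM in the zygote and 13.4 in PB2, and Lrwd1 and the other scaffold Cul4a, both under 10 TPM, made up the rest. Of one ligase, Ddb1 and Cul4a thus stood higher in PB2 and Cul4b in the zygote. With the GC trend removed only Donson (1.42) and Ddb1 (1.14) of these 6 stayed past 2-fold, while Traip was at 0.81, Lrwd1 at 0.44, Cul4a at 0.99 and Cul4b at -0.73.

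Chromatin assembly behind the fork had 5 of 12 genes (41.7%) 2-fold or more higher in PB2 and none in the zygote, beside 18.9% and 8.09% of all genes, with a median log2 ratio of 0.12. These were Chaf1a, the large subunit of the histone chaperone bound to Pcna (78.3 TPM in the zygote and 220.2 in PB2), Ssrp1 of the FACT chaperone (23.9 and 58.0 TPM), Uhrf1, which recruits maintenance methylation (169.7 and 353.1 TPM), and the partners Tonsl (7.2 and 19.7 TPM) and Mms22l (10.9 and 23.1 TPM). Their log2 ratios lay between 1.02 and 1.48. With the GC trend removed only Mms22l (1.02) stayed past 2-fold, while Ssrp1 was at 0.90, Chaf1a at 0.80 and Uhrf1 and Tonsl at 0.50. Partners of these chaperones, named here after their values were seen, did not share the direction. Supt16, the other FACT subunit, was at 160.3 TPM in the zygote and 90.6 in PB2, a log2 ratio of -0.82. Chaf1b and Rbbp4, which form the chaperone with Chaf1a, had log2 ratios of -0.41 and -0.55, and Slbp, which binds histone mRNA, was at 1637.7 and 1244.5 TPM, a log2 ratio of -0.40. The remaining lists had medians from -0.24 to 0.07. Fork accessory factors had a median log2 ratio of 0.07 over 20 genes. Xrcc1 (3.3 TPM in the zygote and 7.6 in PB2) was past 2-fold in one direction and Primpol (4.4 and 1.6 TPM) in the other. Neither was so with the GC trend removed (0.077 and -0.87), while Top1 (1.02) and Rnaseh2a (-1.01) passed 2-fold only then. Nucleotide supply had a median of -0.24 over 15 genes, with Dck (1.1 and 4.0 TPM) and Impdh2 (1.5 and 0.2 TPM) past 2-fold in opposite directions. With the GC trend removed both stayed past 2-fold (1.42 and -1.51), and Tk1 (-1.11) passed only then. Of 10 genes of the replication checkpoint none passed 2-fold, and their median was -0.04. The shares of all genes beside these lists are again 18.9% higher in PB2 and 8.09% in the zygote.

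**Figure D5:**
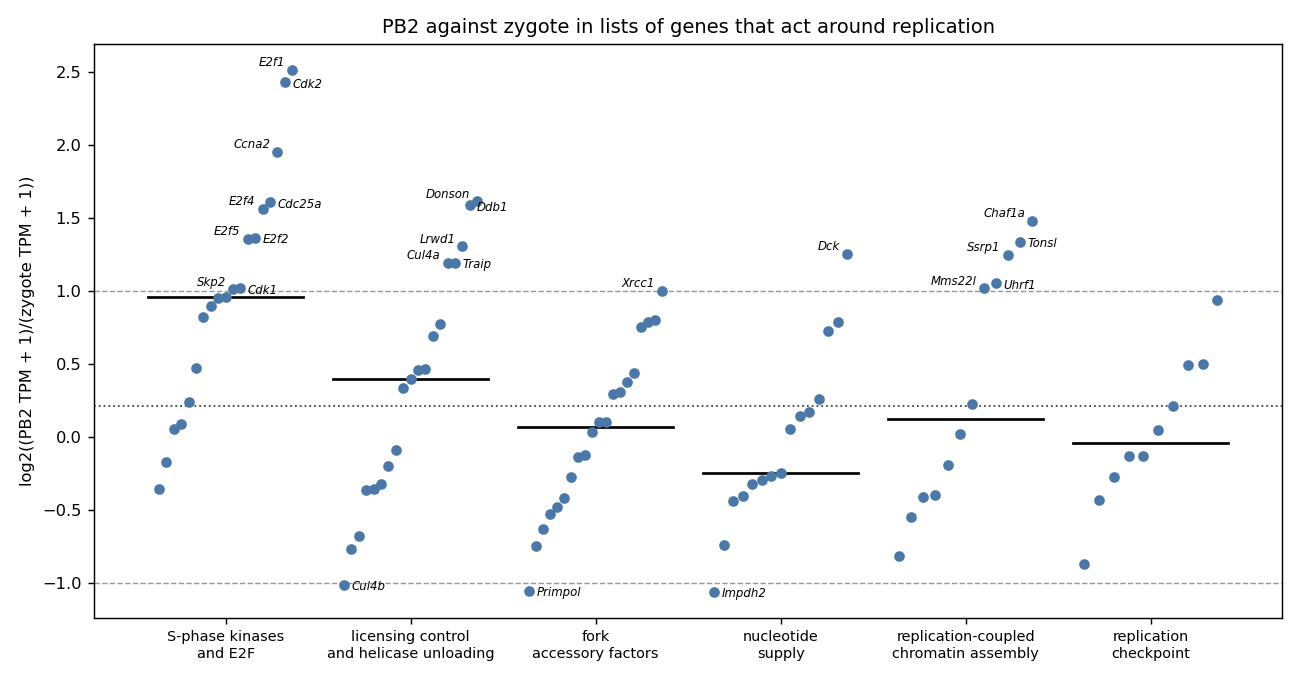
Log2 ratio of PB2 to zygote for the genes of 6 lists that act on the replication machinery and are no members, where each point is 1 gene, bars are list medians and the dotted line is the median of all genes (0.21). The list of S phase kinases and E2F factors has the highest median (0.96) and the list of nucleotide supply the lowest (-0.24).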

How the data were processed

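Polyadenylated RNA of 1 PB2 library and 1 zygote library was analysed. Per the submitters' processing notes, tools were CASAVA, HISAT2 2.0.4, HTSeq 0.6.1p1 and DESeq2 1.18.1, with the builds OryCun2.0, a rabbit assembly, and GRCm38, and the identifiers are of mouse Ensembl genes. The values the authors deposited are TPM with 1 decimal. How these were computed and whether counting used strand is not given in the sources used here. The number of reads cannot be recovered, so the depth is unknown and counting error could not be given as an interval. Columns were matched to samples by name, and 0 were left over.

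The log2 ratio used a pseudocount of 1 and genes with at least 1 TPM in either library, and 2-fold was the threshold counted. With 1 library per group no test was run. GC content, length and end sequence came from each gene's longest coding transcript in GENCODE M21. Trends were fitted by loess (span 0.3) and subtracted. This step was tried on simulated data with a linear GC slope, without low genes and with larger differences than the members compared show. The simulation therefore does not check calls of low members or calls near 2-fold. Every member is named. Of the other lists, the genes that differ by 2-fold or more are named, and some others where the text gives the reason. Markers of oocyte and egg are given by range, and those of other cell types are named above 1 TPM. Members and lists were chosen with earlier results of these data known, and the grouping into complexes, the transcript end search and Gse1, Wsb2 and Eif4a2 after the values were seen. Alternatives were other pseudocounts, filters, scalings and thresholds, and removal of GC or length trends. The scripts ran under Python 3.11.15 with pandas 2.3.3, numpy 2.4.6, statsmodels 0.14.6 (loess), scipy 1.17.1 and, for figures, matplotlib 3.10.9. Fen1 was not among the names of the table and so was not analysed here.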

Additional observations from a re-analysis of the deposited data

How the results depend on the processing

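With 1 library per group the difference has no replicate check. No paired analysis was possible because PB2 and zygote have 1 library each. The 10 members higher in PB2 became 6 when ratios were centred on the median of all genes, 6 with the length trend removed, 4 with the GC trend removed, 18 at a threshold of 1.5-fold and 0 at 4-fold. Over all genes, the 2009 higher in PB2 became 1383 after centring, 1284 with the length trend removed and 963 with the GC trend removed. At 1.5-fold they were 3642 and at 4-fold 264. The 6 members higher in the zygote became 0 at 4-fold and were 5 to 8 otherwise. Over all genes, the 861 higher in the zygote became 1291 after centring, 1242 with the length trend removed and 1162 with the GC trend removed. At 1.5-fold they were 1924 and at 4-fold 74. The median over members was 0.10, and -0.11 after centring and -0.16 with the length trend removed. That of Mcm8, Mcm9 and Mcm3ap was 0.16, and -0.048 and -0.19 in the same settings. Centring lowers every ratio by the median of all genes (0.21) and removal of a trend also centres, while a threshold changes counts by its construction. The cause of the other shifts was not tested. Pseudocounts of 0.1 and 0.01, no filter and a filter at 5 TPM gave 10 and 6, and a rescaling of TPM that left out mitochondrial genes and the 50 highest genes gave 7 and 6. Over all genes the pseudocounts gave 2617 and 1100, and 2632 and 1108. No filter gave 2009 and 861, the 5 TPM filter 1636 and 662 and the rescaling 1968 and 1057. Of the log2 ratios of single members under these settings, 420 moved by no more than 0.5 and 10 by more, all 10 with the GC trend removed. Low members, above all Pold1, Pole and Rfc2, are limited by the single decimal deposited.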
